A study of Mus musculus with 24 samples.

Results

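The genes described are 9 genes of homologous recombination and of the checkpoint kinases that act with it, Bard1, Brca1, Brca2, Rad51c, Rad51d, Rad50, Nbn, Atm and Chek1, measured in mouse blood after X-rays. They were taken by gene name from the probes of 1-colour Agilent expression arrays, where 14 of 39429 probes carried their names, and they are 9 of 23773 gene symbols. Blood was drawn from the heart of 24 male 129S/J mice, 1 mouse per array, 24 h after X-ray or mock exposure. The groups were Parp1-/- mice given 6 Gy (n = 5), Parp1-/- mice given 0 Gy (n = 5), and wild-type mice given 0 Gy (n = 5), 6 Gy (n = 5) or 8.8 Gy (n = 4). The series design gives 6 Gy in Parp1-/- mice and 8.8 Gy in wild-type mice as the doses that kill 50% within 30 days. Parp1 is missing in every cell of the knockout animals, so no group shows its loss in blood alone, and their age is not given in the sources used.

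Homologous recombination repairs a broken chromosome by copying the intact sister chromatid, and therefore works mainly in cells that have replicated their DNA. The complex of Mre11, Rad50 and Nbn (nibrin) binds the broken end and activates the kinase Atm. Chek1 is the kinase through which Atr halts the cell cycle when replication stalls or resected ends appear. Brca1 with its partner Bard1, a ubiquitin ligase, promotes end resection, and Brca2, Rad51c and Rad51d act after it, when the resected end is prepared for the search for the sister. Parp1 is an early sensor of DNA strand breaks, and cells without it lean on recombination when they replicate. Circulating blood holds mostly cells that no longer divide, together with young red cells and few cycling ones.

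A level is given throughout as the log2 processed signal of a gene's brightest probe minus the array's 75th percentile. To be tested, a gene needed 4 or more arrays of some group with that probe well above background, which 12855 genes had, among them 5 of the 9 members. Bard1 and Rad51c were well above background on all 24 arrays and Rad50 on 22. Chek1 was so on 12 arrays and entered the tests only through the wild-type 6 Gy group, and Rad51d was so on 11 and entered only through the Parp1-/- 6 Gy group. A member that entered through 1 group was bound to be high there, and no count over the tested members is read as support for that. Brca1 (1 array), Brca2 (2), Nbn (5) and Atm (2) were not tested. A gene was called at a limma adjusted p under 0.05, with Benjamini-Hochberg adjustment over all 12855 genes.

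In Parp1-/- blood, 6 Gy left Rad51c, read by its only probe, lower and Rad51d higher than in mock-exposed Parp1-/- blood. In wild-type blood, 6 Gy left Bard1 and Chek1 higher, and 8.8 Gy called no member. Rad51d and Chek1 had each entered the tests only through the irradiated group in which they were higher. Bard1, Chek1 and Rad51d differed in their response to 6 Gy between the genotypes, although these 3 calls were lost under several settings given beside them. Those of Bard1 and Rad51d held for the brightest probe only. Rad50 was called in no comparison, and Brca1, Brca2, Nbn and Atm were well above background on 1 to 5 of the 24 arrays.

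The probes are 60 bases long, and the first 30 bases of those on which the calls rest are shown, with Bard1's and Rad51d's other probes because the probes of these genes read differently. Positions are in mm9 as the files give them, all on the minus strand. The brightest Bard1 probe lies at chr1:71074902-71074961, at base 4595 of the transcript, and the others at chr1:71074294-71074353 (base 5203) and chr1:71094217-71094276 (base 1876). Chek1 was read at chr9:36516068-36516127, Rad51c at chr11:87190997-87191056, and Rad51d at chr11:82686589-82686648 by its brighter and chr11:82692243-82692302 by its dimmer probe. Capitals mark the run of alternating T and G that opens the Rad51c probe, 16 bases long, whereas no other probe of the members held such a run of over 6. That Rad51c probe was annotated to an Ensembl transcript and is the only one for the gene, so nothing else on the array checks it.
Bard1, A_55_P2186644, brightest: cctcctctcggtttcccttctttcctacta
Bard1, A_55_P2186648: ccatttagggatactccagtctctgatcgc
Bard1, A_52_P616404: aaatgctcagcaaacttgagacagttctta
Chek1, A_55_P2000187: ttcctgactctgtctcccaaatactgtgat
Rad51c, A_55_P1955891: TGTGTGTGTGTGTGTGgtggtggtggtgtt
Rad51d, A_66_P120949, brightest: ctgtttggggaaaggcgtgtgctttataaa
Rad51d, A_55_P1982593: attgtgtgagatctcatggagcccctggcc

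Between 36.6% and 57.8% of spots were well above background per array, and the number of arrays limits the precision of every value. Parp1 itself was not well above background on any Parp1-/- 0 Gy array (-2.29, -2.81, -3.82, -2.90 and -3.16), against -0.35, -0.49, -0.58, -0.94 and -0.71 on the wild-type 0 Gy arrays. That is at least 2.59-fold lower (adjusted p = 0.0308), and the labels do not say whether the probe lies in the disrupted part of the gene. The array labelled Parp1-/- 6 Gy replicate 1 read Parp1 at -1.67, well above background, while the other 4 of its group read -3.45 to -5.01 and were not. That labelled wild-type 8.8 Gy replicate 4 read it at -3.95, not well above background, against -1.25 to -1.59 in the rest of its group. The wild-type 6 Gy arrays read Parp1 at -1.27 to -2.33, and 3 of these 5 were well above background. Lack of detection alone was therefore not particular to wild-type 8.8 Gy replicate 4. The array labelled Parp1-/- 6 Gy replicate 1 was also nearly equal to wild-type 8.8 Gy replicate 2: the SD of their log2 difference over 7494 genes was 0.168, against 0.272 for the next closest of the 276 possible pairs and a median pair at 0.922. Where leaving out the 2 arrays whose Parp1 goes against the label moves a member's call, that value stands beside the result.

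The mock-exposed wild-type arrays shared a single scan day and the irradiated ones another, so the wild-type responses and the scan day cannot be told apart. The Parp1-/- 0 Gy arrays were spread over 2 days and the Parp1-/- 6 Gy arrays over 3, with 1 day in common. No scan day or slide was shared by the unirradiated Parp1-/- and wild-type arrays. Genotype at 0 Gy, and the interaction that draws on both groups, therefore cannot be told apart from scan day and slide. In whole blood, fewer cells of a type and less RNA per cell cannot be told apart either. The lower limit of detection differed between groups: the lowest level of a probe well above background averaged -2.85 ± 0.58 on Parp1-/- 6 Gy and -1.98 ± 0.33 on Parp1-/- 0 Gy arrays, while the wild-type arrays averaged -3.12 ± 0.80 without irradiation, -2.35 ± 0.30 after 6 Gy and -3.02 ± 1.02 after 8.8 Gy (SD). Dim members were therefore hardest to detect in mock-exposed Parp1-/- blood.

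**Figure D1:**
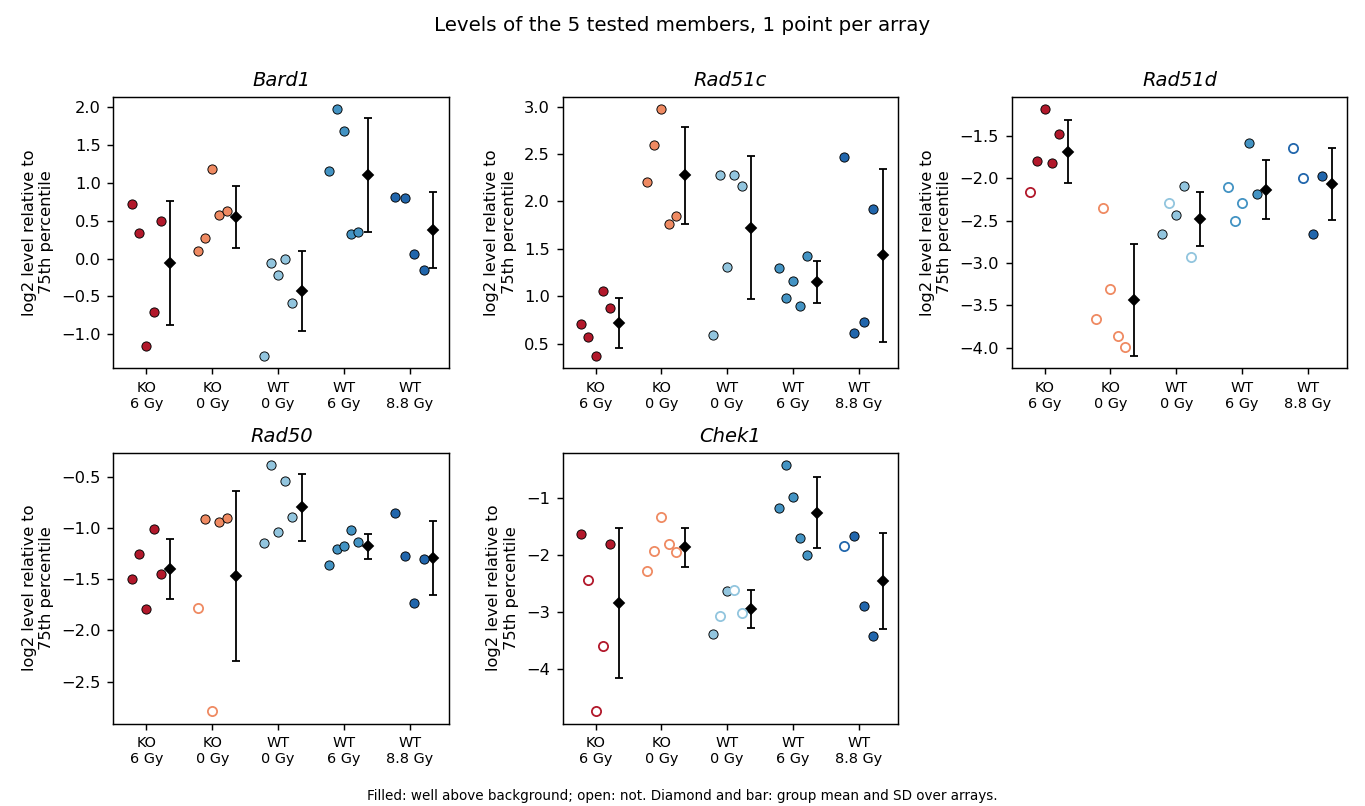
Levels of Bard1, Rad51c, Rad51d, Rad50 and Chek1 (log2 relative to the array's 75th percentile, vertical axis) on each array of the 5 groups (horizontal axis), filled where well above background, with group mean and SD as diamond and bar. Rad51c sits between 0.37 and 1.05 in Parp1-/- 6 Gy blood, below all Parp1-/- 0 Gy arrays, and Chek1 is filled on all 5 wild-type 6 Gy arrays.

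Bard1, the obligate partner of Brca1, was the member with the lowest adjusted p in wild-type blood, after 6 Gy. Its level was 1.15, 1.97, 1.69, 0.33 and 0.36 on the wild-type 6 Gy arrays, against -1.28, -0.06, -0.22, -0.0048 and -0.59 on the wild-type 0 Gy arrays. Every irradiated array stood above every mock-exposed one. The difference was 1.53 ± 0.38 on the log2 scale (SE), 2.89-fold higher (adjusted p = 0.00729). After 8.8 Gy the levels were 0.81, 0.80, 0.06 and -0.15, which overlapped the wild-type 0 Gy group, and the difference of 0.81 ± 0.41 was not called (adjusted p = 0.18). In Parp1-/- blood Bard1 read 0.72, 0.33, -1.15, -0.70 and 0.49 after 6 Gy, against 0.10, 0.27, 1.18, 0.57 and 0.63 after 0 Gy. These groups overlapped, and the difference of -0.61 ± 0.38 was not called (adjusted p = 0.258). Unirradiated Parp1-/- and wild-type levels did not overlap, yet their difference of 0.98 ± 0.38 did not pass the test (adjusted p = 0.165). The 2 unirradiated groups shared no scan day. From high to low the group means ran wild-type 6 Gy, Parp1-/- 0 Gy, wild-type 8.8 Gy, Parp1-/- 6 Gy and wild-type 0 Gy, and no neighbouring pair was farther apart than the larger of its SDs.

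The other probes of Bard1 did not follow the brightest one. The probe A_55_P2186648 read -0.78, -0.69, -1.57, -1.54 and -1.02 in Parp1-/- 6 Gy blood and was well above background on each of these arrays. It was so on none of the Parp1-/- 0 Gy arrays, where it read -2.47, -2.19, -3.26, -1.61 and -2.37. By this probe Bard1 was at least 1.67-fold higher after 6 Gy in Parp1-/- blood (adjusted p = 0.0193), the opposite direction from the brightest probe. In wild-type blood the same probe gave 0.43 ± 0.38 at 6 Gy (adjusted p = 0.412) and the probe A_52_P616404 gave 0.57 ± 0.44 (adjusted p = 0.355), both on the log2 scale. Neither passed the test. Within groups, deviations of the brightest probe correlated with those of A_55_P2186648 at r = 0.67 and with those of A_52_P616404 at r = 0.36 over the 24 arrays, as a description.

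**Figure D2:**
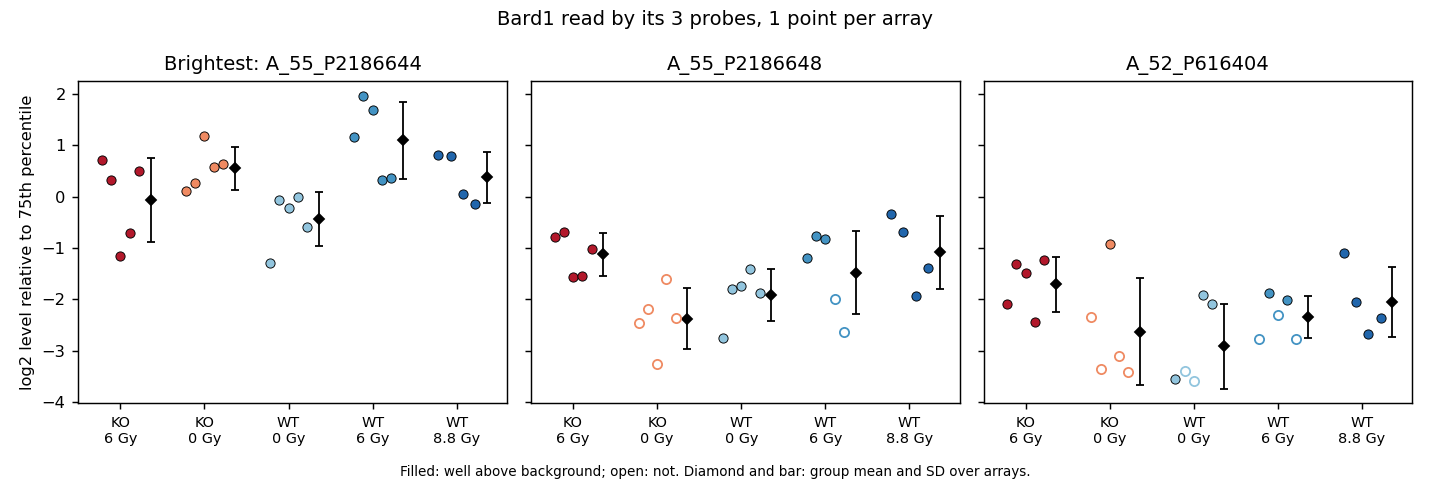
Level of Bard1 (log2 relative to the array's 75th percentile, vertical axis) by its 3 probes, 1 panel each, on every array of the 5 groups (horizontal axis), with group mean and SD. The brightest probe puts the 5 wild-type 6 Gy arrays above all wild-type 0 Gy arrays, and A_55_P2186648 is well above background on all 5 Parp1-/- 6 Gy arrays but on no Parp1-/- 0 Gy array.

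Chek1, the checkpoint kinase of stalled replication and resected ends, behaved much like Bard1. It read -1.17, -0.43, -0.98, -1.71 and -2.00 in wild-type 6 Gy blood, all well above background, against -3.39, -3.07, -2.62, -2.61 and -3.01 in wild-type 0 Gy blood, where 2 of the 5 were. The groups did not overlap. The difference was 1.68 ± 0.46 on the log2 scale, 3.21-fold higher (adjusted p = 0.0124). That size depends on the background treatment: after normexp correction and quantile normalisation it was 0.32 (adjusted p = 0.0217), and that of Bard1 was 0.90 (adjusted p = 0.007). Chek1 entered the tests only through the wild-type 6 Gy group, where it was bound to be high, so its call is no support for a rise. After 8.8 Gy the levels were -1.85, -1.66, -2.89 and -3.41, with 0.49 ± 0.49 as the difference from wild-type 0 Gy (adjusted p = 0.533). In Parp1-/- blood Chek1 read -1.64, -2.45, -4.73, -3.59 and -1.80 after 6 Gy, against -2.28, -1.94, -1.34, -1.80 and -1.96 after 0 Gy. It was well above background on 2 of the irradiated and on none of the mock-exposed Parp1-/- arrays, so no fold is given, and the comparison was not called (adjusted p = 0.132). Without the 2 arrays whose Parp1 goes against the label it was called as lower after 6 Gy in Parp1-/- blood (adjusted p = 0.0478). Its group means had the same order as those of Bard1, again with no neighbours farther apart than the larger SD.

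These 2 members, Bard1 and Chek1, made up the count of 2 of 5 tested members called at 6 Gy in wild-type blood, both higher, and 26.4% of all tested genes were called in that comparison, 15.5% as higher. Chek1 entered the tests through the wild-type 6 Gy group alone, so this count is no support for a rise. The scan days of this comparison cannot be told from the dose. With the scan day as a fixed block, which draws on the Parp1-/- 6 Gy arrays scanned on the same days, Bard1's difference was 0.86 (adjusted p = 0.867) and Chek1's 1.03 (adjusted p = 0.867). Relative to the array median in place of the 75th percentile, the median tested gene fell by 0.74 at 6 Gy in wild-type blood. On that scale Bard1 was higher by 0.75 (adjusted p = 0.0395) and Chek1 by 0.90 (adjusted p = 0.0545), while Rad51c fell by 1.35 (adjusted p = 0.00296) and Rad50 by 1.16 (adjusted p = 0.00851). At 8.8 Gy 0 of 5 tested members were called, against 16% of all tested genes, 7.05% as higher and 8.93% as lower.

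Array to array, Bard1 and Chek1 also moved together inside the groups. Their deviations from the group means correlated at r = 0.905 over 24 arrays, a description over points that share a library and its scaling. In the Parp1-/- 6 Gy group, for example, replicate 3 was the lowest for both, at -1.09 from the mean for Bard1 and -1.89 for Chek1. Bard1's brightest probe moved less closely with Bard1's own other probes inside the groups, at r = 0.67 and r = 0.36. Probes never well above background on any array averaged, as the median of 9535 such probes, -4.71 at 6 Gy and -3.85 at 0 Gy in Parp1-/- blood, and in wild-type blood -5.01 at 0 Gy, -4.12 at 6 Gy and -4.79 at 8.8 Gy. Both genes followed this background level over the arrays, at r = 0.72 for Bard1 and r = 0.71 for Chek1, against r = 0.44 for Rad51c, -0.26 for Rad51d and -0.18 for Rad50. Its part in the 2 calls was not tested. The mean level of the NK cell markers also moved with both inside the groups, at r = 0.85 for Bard1 and r = 0.81 for Chek1. At 6 Gy in wild-type blood 0 of the 6 tested NK cell markers were called, beside 26.4% of all tested genes. Other sets moved with Bard1 and Chek1 there too: never-detected probes (r = 0.67 and 0.59) and cell cycle genes (0.70 and 0.61). So did T cell (0.60 and 0.56), erythroid (0.65 and 0.51) and neutrophil markers (0.605 and 0.53). Heart muscle markers went against both (-0.50 and -0.60), and B cell (-0.05 and -0.08) and monocyte markers (0.07 and 0.04) followed neither.

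**Figure D3:**
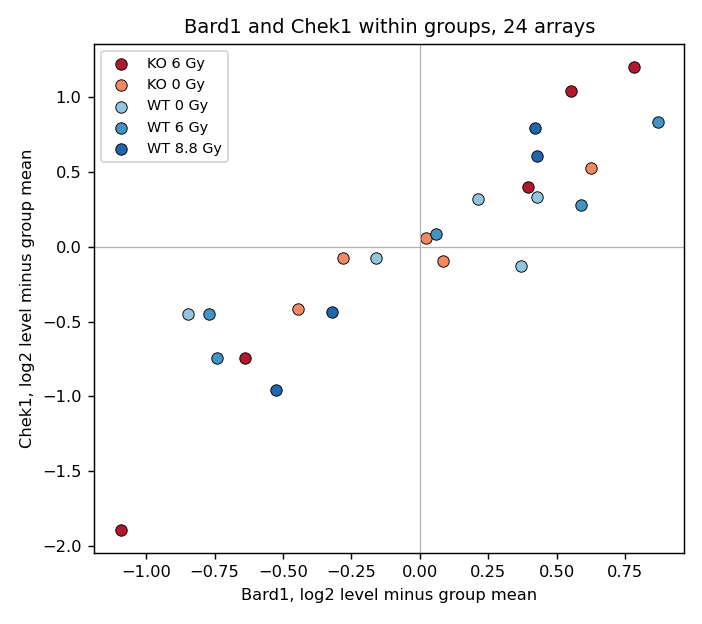
Deviation of Chek1 (vertical axis) against that of Bard1 (horizontal axis) from their group means, both in log2 units, 1 point per array over 24 arrays and 5 groups. The points run along one diagonal (r = 0.905), with Parp1-/- 6 Gy replicate 3 at -1.09 for Bard1 and -1.89 for Chek1.

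Rad51c, a recombination protein that works in a complex with Xrcc3 and in another with Rad51d, was lower in irradiated Parp1-/- blood. Its level was 0.70, 0.57, 0.37, 1.05 and 0.87 in Parp1-/- 6 Gy blood, against 2.20, 2.60, 2.97, 1.76 and 1.85 in Parp1-/- 0 Gy blood. No irradiated array reached the lowest mock-exposed one. The difference was -1.56 ± 0.35 on the log2 scale (adjusted p = 0.00288), that is 2.95-fold lower. It rests on the gene's only probe, the one that opens with the run of T and G. In wild-type blood it read 0.59, 2.28, 1.30, 2.28 and 2.17 at 0 Gy, 1.30, 0.98, 1.16, 0.90 and 1.43 at 6 Gy, and 2.46, 0.61, 0.73 and 1.92 at 8.8 Gy. Both doses overlapped 0 Gy, with differences of -0.57 ± 0.35 at 6 Gy (adjusted p = 0.236) and -0.29 ± 0.38 at 8.8 Gy (adjusted p = 0.63). The response at 6 Gy did not differ between the genotypes past the threshold (difference of differences -0.99 ± 0.50, adjusted p = 0.216). Its means ran, from high to low, Parp1-/- 0 Gy, then wild type at 0, 8.8 and 6 Gy, then Parp1-/- 6 Gy, and of the neighbours the last pair alone was farther apart, by 0.44, than the larger SD.

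Rad51d, which works in a complex with Xrcc2, was higher in irradiated Parp1-/- blood. It read -2.16, -1.79, -1.19, -1.81 and -1.48 in Parp1-/- 6 Gy blood, against -3.66, -2.35, -3.31, -3.86 and -3.99 in Parp1-/- 0 Gy blood. The groups did not overlap, and the gene was well above background on 4 of the 5 irradiated and 0 of the 5 mock-exposed arrays. It was therefore at least 1.23-fold higher (adjusted p = 0.000188), the measured means being -1.69 in Parp1-/- 6 Gy and -3.44 in Parp1-/- 0 Gy blood. Rad51d entered the tests only through the Parp1-/- 6 Gy group, where it was bound to be high, so this call is no support for a rise. Its dimmer probe did not meet the detection filter of the tests. That probe passed the threshold in the same direction (adjusted p = 0.0174). No fold is given for it because its mean after 6 Gy, -2.11, lay below the mean detection limit of the Parp1-/- 0 Gy arrays. In wild-type blood Rad51d read -2.66, -2.29, -2.43, -2.09 and -2.92 at 0 Gy, -2.10, -2.50, -2.29, -1.58 and -2.19 at 6 Gy, and -1.64, -1.99, -2.66 and -1.97 at 8.8 Gy. These groups overlapped and neither dose was called (0.35 ± 0.28, adjusted p = 0.374, and 0.42 ± 0.30, adjusted p = 0.364). At 6 Gy in wild-type blood the dimmer probe passed the threshold, 0.79 ± 0.28 higher (adjusted p = 0.0397). It was well above background on 2 of 5 arrays in each of the wild-type 0 Gy and 6 Gy groups. Within groups, deviations of the brighter and the dimmer probe correlated at r = -0.31 over the 24 arrays, as a description.

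Rad51c and Rad51d were 2 of 5 tested members called in Parp1-/- blood, 1 lower and 1 higher, while 22.9% of all tested genes were called there, 12.4% as higher and 10.4% as lower. Rad51d entered the tests through the Parp1-/- 6 Gy group alone. The only day on which both Parp1-/- groups were scanned held 1 irradiated and 2 mock-exposed arrays. Such numbers cannot carry a test, and 0 genes were called there. Within that day Rad51c differed by -1.53 and Bard1 by 0.30 on the log2 scale, and no size is given for Rad51d and Chek1, which were not well above background on its mock-exposed arrays.

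**Figure D4:**
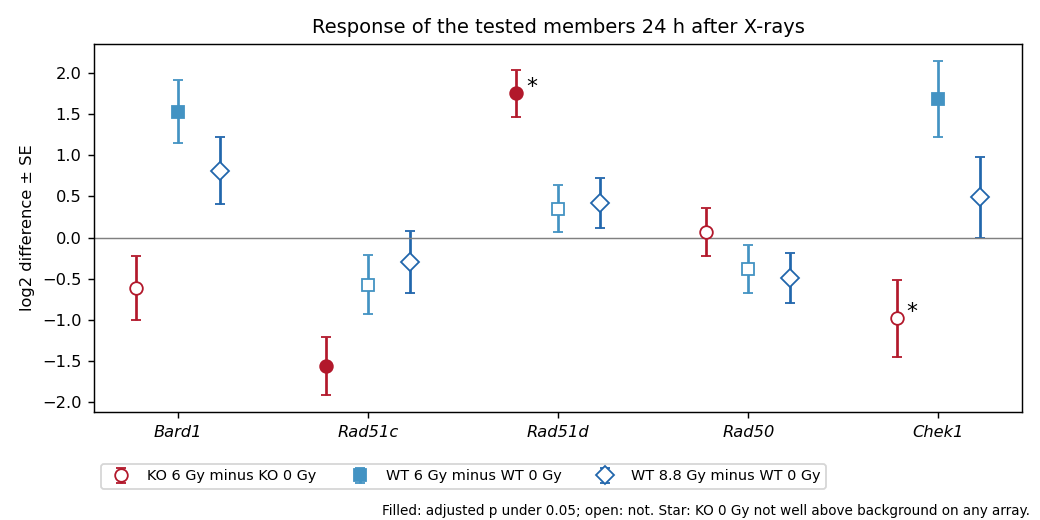
Log2 difference with its SE (vertical axis) of Bard1, Rad51c, Rad51d, Rad50 and Chek1 (horizontal axis) for Parp1-/- 6 Gy minus 0 Gy, wild-type 6 Gy minus 0 Gy and wild-type 8.8 Gy minus 0 Gy, filled where the adjusted p was under 0.05. Filled points stand at -1.56 for Rad51c in Parp1-/- blood and at 1.53 for Bard1 and 1.68 for Chek1 in wild-type 6 Gy blood, and a star marks fitted values of genes not well above background on any Parp1-/- 0 Gy array (Rad51d and Chek1), which are no measure of size.

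Whether the response to 6 Gy differed between genotypes was tested as the Parp1-/- difference minus the wild-type difference. It was called for 3 of 5 tested members and for 6% of all tested genes, 0.918% as higher and 5.08% as lower. Chek1 entered the tests only through the wild-type 6 Gy group and Rad51d only through the Parp1-/- 6 Gy group. Both groups enter this comparison, so the member count is not weighed against the share of all genes. Leaving out 1 array at a time moved the number of genes called between 24 and 1410, against 771 with all arrays, so that this share is not a stable one. For Bard1 it was -2.14 ± 0.54 on the log2 scale (adjusted p = 0.0346). Chek1 was called in the same direction as Bard1 (adjusted p = 0.0335) and Rad51d in the opposite one (adjusted p = 0.0446), and no size is given for them because both were not well above background on any Parp1-/- 0 Gy array. The level of never-detected probes had the same pattern, lower after 6 Gy in Parp1-/- blood (-4.71, against -3.85 at 0 Gy) and higher after 6 Gy in wild-type blood (-4.12, against -5.01 at 0 Gy), and its part in the interaction of Bard1 and Chek1 was not tested. Bard1's call held for its brightest probe only, with 0.82 ± 0.54 (adjusted p = 0.346) for A_55_P2186648 and 0.35 ± 0.63 (adjusted p = 0.748) for A_52_P616404. Rad51d's call likewise held for its brighter probe only, and its dimmer probe was not called (adjusted p = 0.835).

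The 3 interaction calls were the least stable of the members' results. Leaving out 1 array at a time put Bard1's adjusted p between 0.0168 and 0.076, and its call was lost without wild-type 6 Gy replicate 1, 2 or 3, wild-type 0 Gy replicate 1 or 5, Parp1-/- 6 Gy replicate 3 or 4, or Parp1-/- 0 Gy replicate 3 or 5. Chek1's call was lost without 7 of the 24 arrays in turn, the same ones other than the 2 replicates numbered 5, with adjusted p from 0.0121 to 0.0753. That of Rad51d was lost without any of 15 arrays, Parp1-/- 6 Gy replicates 2, 3 and 4, Parp1-/- 0 Gy replicates 3, 4 and 5, all 5 wild-type 0 Gy arrays, wild-type 6 Gy replicates 1, 2 and 3 and wild-type 8.8 Gy replicate 2, with adjusted p from 0.0261 to 0.0959. With the scan day as a fixed block Bard1's interaction was -0.56 (adjusted p = 1). Without the 2 arrays whose Parp1 goes against the label all 3 were called, with adjusted p of 0.0233 for Bard1, 0.0196 for Chek1 and 0.0338 for Rad51d.

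Between the genotypes at one dose no member was called. This held for Parp1-/- against wild type at 0 Gy, where 0.677% of all tested genes were called, and at 6 Gy, where 0.879% were. With 1 array left out these counts ran from 1 to 352 genes at 0 Gy (87 with all arrays) and from 0 to 527 at 6 Gy (113 with all arrays). At 0 Gy the genotypes shared no scan day or slide, so genotype and day cannot be told apart there. At 6 Gy the uncalled difference of Parp1-/- from wild-type blood was -1.16 ± 0.38 for Bard1 (adjusted p = 0.0874) and -1.58 ± 0.46 for Chek1 (adjusted p = 0.0689). Without the 2 arrays whose Parp1 goes against the label Chek1 passed the threshold, at -1.88 (adjusted p = 0.0265). At the doses of equal lethality, Parp1-/- 6 Gy against wild-type 8.8 Gy, 0 of 5 tested members and 0% of all tested genes were called by limma, with 265 of 12855 genes at an unadjusted p under 0.05. The 2 nearly equal arrays, Parp1-/- 6 Gy replicate 1 and wild-type 8.8 Gy replicate 2, stand on opposite sides of this comparison, and whether they are separate samples cannot be told from the files. With either left out, the count of genes called was again 0. The step to 8.8 Gy from 6 Gy in wild-type blood likewise called 0 members and 0% of genes, with 2314 at an unadjusted p under 0.05. Across that dose step Chek1 had the largest of the members' differences, -1.20 ± 0.49 (adjusted p = 0.215).

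Rad50, the ATPase of the end-binding complex, was readily detected and was called nowhere. It read -1.50, -1.26, -1.79, -1.02 and -1.45 in Parp1-/- 6 Gy blood, against -1.78, -0.91, -2.79, -0.95 and -0.90 in Parp1-/- 0 Gy blood, with a difference of 0.06 ± 0.29 (adjusted p = 0.895). In wild-type blood it read -1.14, -0.39, -1.04, -0.54 and -0.90 at 0 Gy, -1.36, -1.20, -1.18, -1.02 and -1.14 at 6 Gy, and -0.86, -1.27, -1.74 and -1.30 at 8.8 Gy. The wild-type 0 Gy group had the highest mean, -0.80 ± 0.32 (SD, n = 5), and its distance to the next group, 0.38, was above the larger SD of the pair, yet neither dose passed the test (-0.38 ± 0.29, adjusted p = 0.344, at 6 Gy and -0.49 ± 0.31, adjusted p = 0.292, at 8.8 Gy). Rad50's second probe was well above background on 4 of 24 arrays only.

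Nbn, which brings Atm to the break, was well above background on 5 of 24 arrays, 1 of them Parp1-/- 6 Gy, 2 wild-type 0 Gy and 2 wild-type 8.8 Gy. Atm, the kinase that starts the signal from double-strand breaks, was so on 2 arrays, 1 wild-type 0 Gy and 1 wild-type 6 Gy. Its brightest probe was printed 10 times on each array, and the spots of 1 array had a median SD of 0.53 on the log2 scale. That is the spread of single spots, whereas the level of an array is their mean. The wild-type 6 Gy group had the highest Atm mean, -2.62 ± 0.34 (SD, n = 5), and the other groups' means lay between -3.17 and -3.57. In each group the Atm mean was below the mean of the lowest level of a probe well above background. Its second probe was called as lower after 6 Gy in Parp1-/- blood (adjusted p = 0.0348), but it was well above background on no array of either Parp1-/- group, so no fold is given. For these genes the arrays do not show absence, but on most arrays levels too low to be read.

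Brca1 was well above background on a single array, Parp1-/- 6 Gy replicate 3, at -1.72. The other 4 arrays of that group read -4.55 to -5.68, and all Parp1-/- 0 Gy arrays -3.75 to -4.46. In wild-type blood Brca1 read -4.61 to -6.46 at 0 Gy, -4.03 to -4.85 at 6 Gy and -3.99 to -5.86 at 8.8 Gy. Brca2 was well above background on 1 Parp1-/- 6 Gy array, at -2.92, and on 1 wild-type 0 Gy array, at -3.16, and otherwise read between -1.74 and -4.50 without passing the background test. Bard1 was thus clearly detected on all 24 arrays by its brightest probe while the Brca1 probe was detected on 1, which sets detection and not amounts side by side, since levels of different probes cannot be compared.

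**Figure D5:**
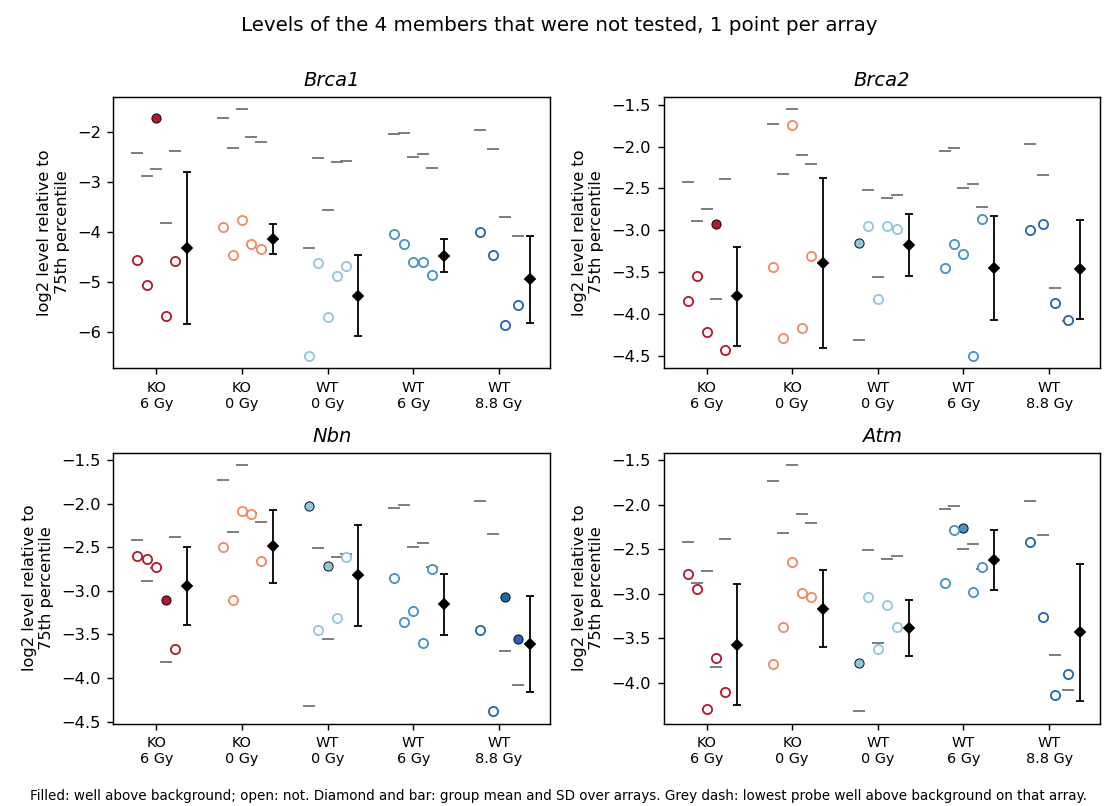
Levels of Brca1, Brca2, Nbn and Atm (log2 relative to the array's 75th percentile, vertical axis) on each array of the 5 groups (horizontal axis), filled where well above background, with the lowest level of any probe well above background on that array as a grey dash. Brca1 is filled on 1 of 24 arrays, Brca2 and Atm on 2 and Nbn on 5.

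Of 30 other genes of homologous recombination, all were on the array, 15 were tested and 5 were never well above background. In Parp1-/- blood 6 Gy called 0 of the 15 as higher and 1 as lower, beside 12.4% and 10.4% of all tested genes. Their median difference was -0.04, against -0.07 over all tested genes. The wild-type response to 6 Gy called 0 as higher and 1 as lower, beside 15.5% and 10.9% of all (median -0.16 against 0.04). That to 8.8 Gy called 0 as higher and 4 as lower, beside 7.05% and 8.93% (median -0.37 against 0.03). Rpa1, the large subunit of the protein that coats single-stranded DNA, was lower in all 3 responses. It averaged 2.49 ± 0.50 in Parp1-/- 6 Gy and 3.43 ± 0.46 in Parp1-/- 0 Gy blood (adjusted p = 0.0224), and 2.52 ± 0.61 in wild-type 6 Gy (adjusted p = 0.0398) and 2.38 ± 0.25 in wild-type 8.8 Gy (adjusted p = 0.0353), against 3.35 ± 0.33 in wild-type 0 Gy blood (SD). After 8.8 Gy Mre11a, the nuclease partner of Rad50 and Nbn, was also lower, at -2.34 ± 0.18 against -1.34 ± 0.14 in wild-type 0 Gy blood (adjusted p = 0.0243). Rpa2, the second subunit of the same coat, was lower as well, at -2.42 ± 0.33 against -1.51 ± 0.35 (adjusted p = 0.0255). The 2 wild-type responses share their 0 Gy arrays.

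Of 25 other genes of checkpoint signalling, 21 were tested. After 6 Gy in Parp1-/- blood 3 were higher and 2 lower, beside 12.4% and 10.4% of all tested genes, with a median difference of -0.13 against -0.07 over all genes. In wild-type blood 2 were higher and 5 lower after 6 Gy, beside 15.5% and 10.9% of all (median -0.56 against 0.04), and 3 higher and 4 lower after 8.8 Gy, beside 7.05% and 8.93% (median -0.48 against 0.03). Cdkn1a, the p53 target that blocks cyclin-dependent kinases, was at least 11.95-fold higher in irradiated Parp1-/- blood (adjusted p = 1.91e-08) and higher by 4.16 ± 0.30 on the log2 scale at 6 Gy in wild-type blood (adjusted p = 1.94e-08). Mdm2, which targets p53 for degradation, was higher by 1.66 ± 0.22 in Parp1-/- blood (adjusted p = 2.81e-05) and by 1.19 ± 0.22 in wild-type blood at 6 Gy (adjusted p = 0.00103). Cdc25b, the phosphatase that opens entry into mitosis, fell by 2.05 on the log2 scale in Parp1-/- blood (adjusted p = 0.000193) and by 2.60 in wild-type blood at 6 Gy (adjusted p = 2.53e-05). At 8.8 Gy Cdkn1a was higher by 3.89 ± 0.32 (adjusted p = 6.28e-08), and Timeless, which holds the replication fork together, fell by 1.63 on the log2 scale (adjusted p = 0.00211) and Cdc25b by 1.53 (adjusted p = 0.00571). No gene of either list was called for the interaction.

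Most cell cycle genes that were called fell. Of 20 tested, 8 were lower and 2 higher after 6 Gy in Parp1-/- blood, beside 10.4% lower and 12.4% higher among all tested genes. In wild-type blood 10 were lower and 1 higher after 6 Gy, beside 10.9% and 15.5% of all, and 6 lower and 0 higher after 8.8 Gy, beside 8.93% and 7.05%. Their median differences were -1.09, -1.10 and -1.01 in these 3 responses, against -0.07, 0.04 and 0.03 over all genes. Nusap1, a mitotic spindle protein, fell by 2.79 on the log2 scale in Parp1-/- blood (adjusted p = 7.81e-05) and by 3.37 in wild-type blood at 6 Gy (adjusted p = 1.64e-05). E2f2, a transcription factor of cell cycle entry that is also high in young red cells, fell by 2.21 in Parp1-/- blood (adjusted p = 0.00124), and Ube2c, which helps to destroy mitotic cyclins, by 2.49 at 6 Gy in wild-type blood (adjusted p = 0.000484). At 8.8 Gy Cdt1, which licenses replication origins, fell by 1.85 (adjusted p = 0.000398) and Nusap1 by 1.80 (adjusted p = 0.00821). Tyms, which makes thymidylate, was the gene of this list called for the interaction, at -3.02 ± 0.75 (adjusted p = 0.0346).

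Markers of blood cells moved at the same time. Among all tested genes, 12.4% were higher and 10.4% lower after 6 Gy in Parp1-/- blood. In wild-type blood 15.5% were higher and 10.9% lower after 6 Gy, and 7.05% and 8.93% after 8.8 Gy. Of 13 tested B cell markers 11 were lower and 0 higher in each of the 3 responses, and their mean level lay between -2.07 and -1.21 in Parp1-/- 6 Gy and between -0.0074 and 1.44 in Parp1-/- 0 Gy blood. In wild-type blood it lay between 0.84 and 1.37 at 0 Gy, -1.43 and -0.60 at 6 Gy, and -1.68 and -1.16 at 8.8 Gy. Of 16 T cell markers 13 were lower in Parp1-/- blood, 11 at 6 Gy and 13 at 8.8 Gy in wild-type blood. Platelet markers went the other way: of 11 tested, 4 were higher and 0 lower in Parp1-/- blood, and in wild-type blood 0 were called at 6 Gy and 6 were higher and 0 lower at 8.8 Gy. Their mean level lay between 4.83 and 5.83 in Parp1-/- 6 Gy and between 3.67 and 4.63 in Parp1-/- 0 Gy blood, without overlap, and in wild-type blood between 2.95 and 4.84 at 0 Gy, 2.85 and 5.18 at 6 Gy, and 4.71 and 5.92 at 8.8 Gy. Inside the groups this platelet level moved with Bard1 at r = 0.77 and with Chek1 at r = 0.59, but not with Rad51d (r = -0.0064). The same correlations over the arrays were r = 0.35 for Bard1, r = 0.14 for Chek1 and r = 0.38 for Rad51d. Over the arrays, B cell marker levels moved with Rad51c at r = 0.57 and against Rad51d at r = -0.63, but inside the groups at r = -0.05 and r = 0.04. Erythroid markers moved with Rad51c at r = 0.62 over the arrays and r = 0.44 inside the groups. The part of these cells in the members' changes was not tested. Hepatocyte markers, which whole blood should lack, ranged from -0.86 to 6.76 in the Parp1-/- 6 Gy group and from -1.29 to 7.59 in the wild-type 0 Gy group, with 0 of 10 tested called in any comparison, and moved against Bard1 inside the groups at r = -0.63.

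The genes that moved most like each tested member inside the groups were sought over all tested genes, by Pearson correlation of deviations from the group means over 24 arrays, as a description of arrays that share their scaling. For Bard1 they were Nrxn3 (r = 0.963), Chaf1b (r = 0.951) and Galp (r = 0.951), and for Chek1 C85181 (r = 0.967), Gm9054 (r = 0.966) and Drp2 (r = 0.965). Rad51c went with Sema4c (r = 0.941), Exosc9 (r = 0.939) and Fam160b2 (r = 0.93), and Rad50 with Atr (r = 0.928), Taf1c (r = 0.926) and Ercc2 (r = 0.916). Atr is the kinase upstream of Chek1, and Rad50 also followed the mean of the checkpoint list at r = 0.90 inside the groups. Rad51d had the loosest neighbours, Edem3 (r = 0.752), Gpr65 (r = 0.75) and Cd300lf (r = 0.723). Among the members themselves no pair other than Bard1 and Chek1 exceeded r = 0.376.

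The promoters of Bard1 and Chek1 are shown, from RefSeq on GRCm38.p6, 250 bases before to 50 after the start site. Both lie on the minus strand and are read in the direction of the gene. Whether these sequences have a part in the joint movement of the 2 genes was not tested. Bard1's lies at chr1:71102923-71103222 and Chek1's at chr9:36726609-36726908. Motifs of 5 kinds were searched on both strands: the cell cycle homology region TTTGAA, the CCAAT box, the E2F site, the p53 half-site and the GC box GGGCGG. Capitals mark the TTTGAA at base -242 and the E2F match at base -209 of Bard1. No match of any of these was found in the Chek1 window, which says only that these letters are not in it. The Chek1 window ends in gcgggaa, which lacks only the last base of GCGGGAAA, the E2F match of Brca2. The window edge therefore leaves that match in Chek1 undecided. TTTGAA stood in 17.9%, the E2F site in 2.26% and GGGCGG in 35.7% of all 32851 promoters of this length. Bard1 also held 2 matches to the GC box, and none of its matches overlapped another. Of the other members with an entry, Rad51c had an E2F match in each of its 2 promoters, 1 of them overlapping a GC box, and Brca2 had 1, while Atm and Brca1 each held a CCAAT box, found in 37.4% of all promoters. The p53 half-site, present in 8.36% of promoters, was found in none of these 7 windows.
Bard1 promoter: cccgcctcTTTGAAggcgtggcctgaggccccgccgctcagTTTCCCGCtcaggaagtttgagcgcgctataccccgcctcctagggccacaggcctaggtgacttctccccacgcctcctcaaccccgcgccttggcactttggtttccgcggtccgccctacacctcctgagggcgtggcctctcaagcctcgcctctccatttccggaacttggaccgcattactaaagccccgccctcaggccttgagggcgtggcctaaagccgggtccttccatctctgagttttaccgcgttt
Chek1 promoter: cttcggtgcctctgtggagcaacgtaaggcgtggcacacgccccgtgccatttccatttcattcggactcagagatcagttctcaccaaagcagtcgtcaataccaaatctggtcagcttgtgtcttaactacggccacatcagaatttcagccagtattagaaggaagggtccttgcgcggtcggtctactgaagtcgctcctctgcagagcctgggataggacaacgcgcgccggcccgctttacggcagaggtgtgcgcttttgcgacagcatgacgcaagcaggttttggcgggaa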

How the data were processed

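RNA from whole blood was stabilised, purified on columns with DNase and depleted of globin, then labelled with Cy3, per the labels' protocols. Intensities of single spots, not yet in logs, stand in the deposited scanner files, made with Agilent Feature Extraction 11.5.1 per the file headers, which subtracts background and detrends within an array. The authors' deposited table holds log2 values, equal to log2 processed signals plus 1 constant per array, and it contains 2 of the 9 members, so it served as an alternative. Here log2 processed signal minus the array's 75th percentile was used, control and outlier spots were left out, spots of a probe were averaged, and a gene took its brightest probe. Limma 3.58.1 in R 4.3.3 fitted the 5 groups of 24 arrays together over 12855 genes, with Benjamini-Hochberg adjustment for each of 8 comparisons. The bound of a gene that was dim on every array of a group used the lowest probe well above background on each of those arrays. The fit was tested on simulated data.

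Members and gene lists were chosen with earlier results of these data known. Besides members and Parp1, the text names, per comparison, the called genes with the largest differences of each list (up to 3, or 2 for cell cycle genes) and the 3 genes most correlated with each tested member. Slide and scan day were read from the file headers. Replicate numbers are shared between groups, but the correlations of same-numbered arrays had mixed signs, so the numbers were not used as pairs. The readings of the members' other probes and the relation to the level of never-detected probes were chosen after seeing the data.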

Additional observations from a re-analysis of the deposited data

Results flagged for a closer look

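Among 45 groups of member levels, 2 held an array far from its neighbours, where chance alone would mark about 2.25. Brca1 read -1.72 on the array labelled Parp1-/- 6 Gy replicate 3, well above background, with the next highest of its group at -4.55. Brca2 read -3.82 on wild-type 0 Gy replicate 3, with the next lowest of its group at -3.16.

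The response to 6 Gy differed between genotypes by the interaction test for 3 members. The fitted Parp1-/- response minus the wild-type response was -2.14 for Bard1, by its brightest probe, -2.66 for Chek1 and 1.40 for Rad51d, by its brighter probe. The fitted values of Chek1 and Rad51d rest on Parp1-/- 0 Gy arrays on none of which these genes were well above background, and are no measure of size.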

How the results depend on the processing

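Of 281 member differences recomputed under another setting, 222 kept their direction and side of the threshold. Of the rest, 28 lost a call, 8 gained one and 23 changed direction. Of 552 recomputed with 1 array left out, 517 kept both. Many of those arrays lay outside the groups compared, which leaves the difference itself unchanged. With any 1 array left out, the count of members called stayed at 2 of 5 for 6 Gy in Parp1-/- blood and for 6 Gy in wild-type blood, always the same genes, and at 0 for 8.8 Gy, for equal lethality and for the dose step. It ran from 0 to 1 for each genotype comparison at one dose and from 0 to 3 for the interaction. Rad50's difference in Parp1-/- blood then ran from -0.27 to 0.20.

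Slide and scan day as fixed blocks ended all calls (0 members in each comparison), with larger SEs. Rad51c in Parp1-/- blood was -1.53 under both, with an SE of 0.65 under slide against 0.35 as reported. Bard1 at 6 Gy in wild-type blood was 1.42 ± 0.64 under slide, against 1.53 ± 0.38. In Parp1-/- blood both blocks draw on the same 1 irradiated and 2 mock-exposed arrays, which shared a slide and a day. Their values there are therefore 1 estimate and not separate checks. That estimate, which is also the one of the only day with both Parp1-/- groups, turned the fitted values of Bard1 (0.3049), Chek1 (0.3044) and Rad50 (-0.10) in Parp1-/- blood. Slide turned Rad51c (0.96) and Rad50 (0.32) at 6 Gy and Rad51c (1.32) and Rad50 (0.47) at 8.8 Gy in wild-type blood. Day turned Rad50 at 6 Gy (0.12), and Rad51c (0.21), Rad50 (0.0091) and Chek1 (-0.16) at 8.8 Gy in wild-type blood, and Bard1 between the unirradiated genotypes (-0.57). The interaction also lost its 3 calls (0 left) with slide as a random block, with normexp and quantile normalisation, and with the replicate number as a block, where Bard1's adjusted p was 0.0559, Chek1's 0.0522 and Rad51d's 0.0711. Bard1's interaction was -1.94 with slide as a random block (adjusted p = 0.0622), -1.17 with normexp and quantile (adjusted p = 0.0542) and, as reported, -2.14 with the replicate block. The replicate block changed no other member call.

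Only probes detected on all arrays, or the authors' deposited values, leave 2 members to test, and 1 each was called in Parp1-/- blood, in wild-type blood at 6 Gy and for the interaction. The mean of all probes turned Bard1 (0.52) and Rad50 (-0.24) in Parp1-/- blood and Rad50 (0.15) in wild-type blood at 6 Gy, called 1 member at 8.8 Gy and left 1 interaction call. Median centring (-0.43) and normexp with quantile (-0.064) turned Rad51d at 6 Gy in wild-type blood. Between genotypes at 6 Gy, 1 member was called with median centring, 2 with the percentile over probes detected on all arrays and 1 without the 2 arrays whose Parp1 goes against the label. The cause of these changes was not tested.

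Genes called over all settings but 1 array left out ran from 0 to 3077 in Parp1-/- blood (2938 as reported), from 0 to 6887 at 6 Gy (3389) and 0 to 2447 at 8.8 Gy (2054) in wild-type blood, and from 0 to 7264 for the interaction (771). Between genotypes they ran from 0 to 103 at 0 Gy (87) and from 0 to 3784 at 6 Gy (113), and from 0 to 1680 for the dose step (0). Median centring made 534 of 6044 called genes higher at 6 Gy in wild-type blood, against 1987 of 3389 as reported, and 3496 of 3924 for the interaction, against 118 of 771. Signal over background limits Chek1 and Rad51d in mock-exposed Parp1-/- blood and Brca1, Brca2, Nbn and Atm on most arrays.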
